A study of Mus musculus with 7 samples.

Results

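The Frizzled receptor family was followed in 7 mouse Group 3 medulloblastoma (G3 MB) tumors, 3 control and 4 overexpressing WDR11 (WDR11OE). The family was taken as the 10 genes whose symbols run from Fzd1 to Fzd10, out of 34592 genes in the count table. Membership did not use their measured levels, but the family was chosen with earlier results of these data known. Of the 10, 9 passed the filter on low counts and were tested among 17389 genes, and Fzd10 did not. The label of the control samples gives 1 tumorsphere line, and the WDR11OE tumors were taken to come from the same line. The study overexpressed WDR11 in more than 1 line, and its sequencing methods do not name the line used. The labeled line was derived from cerebellar granule neuronal progenitors of Trp53-/-; Cdkn2c-/- mice, transduced with a Myc-IRES-GFP retrovirus. On that reading both groups carried the 2 deletions and the Myc transgene. The control spheres received an empty pCDH-EF1 lentivirus with a copGFP reporter, although the sample labels list their treatment as none, and the WDR11OE spheres received the human WDR11 coding sequence in the same vector, driven by the EF1 promoter. Unsorted spheres were implanted in the cortex of athymic CD1-nu/nu hosts, which lack most T cells. Pieces of tumor or cell pellets were taken when the hosts became moribund. The source label of the control samples names tumorspheres, whereas the study's methods describe the sequenced samples as tumors. P-values measure the spread between these tumors only. A difference of line between the groups, if there was one, could not be told apart from condition.

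Frizzleds are multi-pass membrane receptors that bind WNT ligands through an extracellular cysteine-rich domain (CRD). With the co-receptors LRP5 and LRP6 they recruit Dishevelled and stabilize β-catenin, and with other partners they act in planar cell polarity and in axon guidance. In medulloblastoma, WNT signaling is best known for the separate WNT subgroup, in which β-catenin itself is activated, whereas G3 MB is marked by high MYC. The mouse members fall by sequence into Fzd1, Fzd2 and Fzd7, then Fzd5 and Fzd8, then Fzd4, Fzd9 and Fzd10, and lastly Fzd3 and Fzd6.

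Total counts per tumor ranged from 32116095 to 87141305, so that a count of 3 corresponded to between 0.0329 and 0.0924 CPM (reads of a gene scaled to the adjusted library size). The transgene was human WDR11, and mouse Wdr11, on which some transgene reads could have been counted, stood at 58.3 to 59.3 CPM in control and 61.0 to 68.9 CPM in WDR11OE tumors (log2 fold change 0.16, edgeR adjusted p = 0.0910). Myc, which the retrovirus also supplies, fell, with 812 to 1110 CPM in control and 278 to 431 CPM in WDR11OE tumors (log2 fold change -1.40, edgeR adjusted p = 0.00228). Of the granule lineage markers, Atoh1 was at 0 counts in all tumors, while the 5 of 8 that were tested did not pass the test. Markers of other tissues moved with the groups: the 7 fibroblast markers summed to 3700 to 4490 CPM in control and 1430 to 1900 CPM in WDR11OE, with 3 of 7 lower (Col3a1, Fn1 and Pdgfrb), and the 8 endothelial markers to 125 to 163 and 102 to 112 CPM, with 3 of 8 lower. Col3a1 alone made up most of the fibroblast sum (2720 to 3260 and 1050 to 1230 CPM), and of the other 4 markers Col1a1 (log2 fold change -1.13), Col1a2 (-1.04), Dcn (1.05) and Lum (0.46) none passed the test. The 7 skeletal muscle markers summed to 3.16 to 4.97 CPM in control and 40.7 to 118 CPM in WDR11OE, with 7 of 7 higher. These counts stand beside 15.8% of all genes tested that were lower and 18.1% that were higher. After the trend with exon GC content was removed, 2 of the 8 endothelial markers were lower, beside 14.3% of all genes. Summed astrocyte, neuron, oligodendrocyte and microglia markers overlapped between the groups, with no marker passing the test. Within the WDR11OE group, however, 7 of 8 neuron markers were higher in replicates 3 and 4 than in replicates 1 and 2, as for Snap25 at 38.5 and 141 against 1.28 and 4.77 CPM. The same held for every astrocyte marker, as for Gfap at 122 and 252 against 22.5 and 23.6 CPM, and for every microglia marker except Cd68. Of the oligodendrocyte markers, it held for Mobp and Mal only. The part of these markers in the Frizzled values was not tested, and in bulk tumor RNA fewer cells of a type and less RNA per cell cannot be told apart. The libraries of the groups carried separate number series in their labels, so that series and condition cannot be told apart either.

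The receptors share a short stretch on the inner side of the membrane, the KTXXXW motif, through which Frizzleds bind Dishevelled. It is shown here because it is a landmark by which the members can be lined up, with tails of different length behind it. The 18 coding bases of the motif were read from the GENCODE M1 transcripts and are printed for 9 of the 10 members, without Fzd8, with the codons of the lysine, the threonine and the tryptophan in capitals.
Fzd1: AAGACActgaattccTGG
Fzd2: AAGACActgcactcgTGG
Fzd7: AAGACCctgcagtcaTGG
Fzd5: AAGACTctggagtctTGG
Fzd4: AAAACTcttcacacgTGG
Fzd9: AAGACTtttcagactTGG
Fzd10: AAGACCctgcagtccTGG
Fzd3: AAGACAtgctttgaaTGG
Fzd6: AAGACGtgcacagaaTGG
Each of the 10 encoded proteins held the motif once, Fzd8 included. The 18 bases varied, with 1 of 18 differing between Fzd7 and Fzd10 and 11 of 18 between Fzd3 and Fzd4. It was followed by 17 residues in Fzd1, Fzd2 and Fzd7, by 33 to 74 in Fzd4, Fzd5, Fzd8, Fzd9 and Fzd10, and by 159 in Fzd3 and 206 in Fzd6. Fzd3 and Fzd6, whose tails were the longest, were among the 4 tested members that did not pass the test of condition. Fzd8, with the next longest tail of 74 residues, did pass, while Fzd5 and Fzd9, with 55 and 54, did not. Across whole coding sequences, Fzd1 and Fzd2 were the most alike (82.0% identity), Fzd7 shared 78.6% with each of them, Fzd5 shared 76.3% with Fzd8, and Fzd3 shared 64.3% with Fzd6. No pair of members shared a run of 50 bases in these coding sequences, and the untranslated parts of the exons were not compared.

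Levels of different receptors were compared as CPM per kilobase of merged exons. Fzd2 was the highest in every tumor, at 46.2 ± 3.34 (SD, n = 3) in control and 24.4 ± 3.11 (SD, n = 4) in WDR11OE. Fzd7 came next, at 22.2 and 11.6 CPM per kilobase, and Fzd3 followed at 9.21 and 7.91. These receptors kept that order in 7 of 7 tumors. Fzd9 averaged 5.28 CPM per kilobase in control and 4.13 in WDR11OE, Fzd1 4.58 and 2.40, Fzd6 2.91 and 2.71, and Fzd4 2.38 and 1.22. Within this middle group neighbors exchanged places: Fzd1 exceeded Fzd6 in 3 of 3 control tumors but in 1 of 4 WDR11OE tumors. Fzd8 averaged 1.95 and 0.786 CPM per kilobase and Fzd5 0.871 and 0.753, with Fzd8 the higher in 3 of 3 control and 2 of 4 WDR11OE tumors. Fzd10 was the lowest in every tumor.

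**Figure D1:**
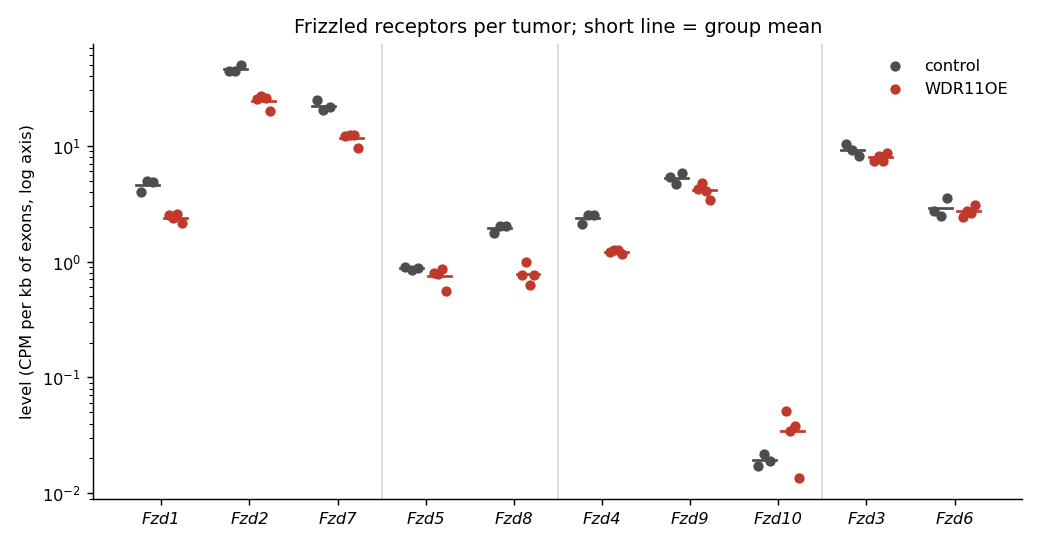
Level of each Frizzled receptor per tumor in CPM per kilobase of merged exons on a log axis, with 1 point per tumor, a short line at the group mean, and grey lines between the sequence subfamilies. Fzd2 and Fzd7 lie above the other members in every tumor, and the groups lie apart for Fzd1, Fzd2, Fzd7, Fzd8 and Fzd4.

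The question put to each receptor was whether its transcript level differed between WDR11OE and control tumors. Of the 9 tested members, 5 fell (Fzd1, Fzd2, Fzd4, Fzd7 and Fzd8) and 0 rose at an adjusted p under 0.05 in edgeR's quasi-likelihood test. Over all 17389 genes tested, 15.8% fell and 18.1% rose by the same rule. At an unadjusted p under 0.05, edgeR and limma-voom each gave 5 members lower and 0 higher, and DESeq2 7 lower and 0 higher. With WDR11OE replicates 3 and 4 left out, a choice made after seeing the data, the count was again 5 lower and 0 higher. The median log2 fold change of the 9 members was -0.92, beside 0.08 for all genes. The same 5 members had groups that did not overlap, against 19.1% of all genes not overlapping in the lower direction and 23.5% in the higher. Only Fzd8 fell by at least 2-fold with a mean above 1 CPM, as 3.45% of all genes did.

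Fzd2, the most abundant receptor, lies in 1 exon at chr11:102465745-102469372 on the plus strand (NCBIM37, ENSMUSG00000050288) and is known for roles in palate and heart outflow development. It stood at 161, 160.1 and 181 CPM in the 3 control tumors and at 91.2, 97.4, 92.9 and 71.9 CPM in the 4 WDR11OE tumors. Every WDR11OE tumor lay below every control tumor, and the mean was 52.7% of control. The log2 fold change was -0.92 (SE 0.11, 95% interval -1.19 to -0.66, adjusted p = 0.00151). The exact permutation test over the 35 ways to divide the tumors gave its smallest possible p of 0.0286, two-sided. Permutation p-values of single members were not adjusted for the number of members.

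Fzd7, a receptor studied in stem cells and in several carcinomas, lies in 1 exon at chr1:59538991-59543791 on the plus strand (ENSMUSG00000041075). Its level was 118, 97.7 and 104 CPM in control and 58.6, 58.9, 59.0 and 45.8 CPM in WDR11OE. Again no tumors overlapped, and 3 of the 4 WDR11OE tumors were nearly equal, with replicate 4 below them. The log2 fold change was -0.94 (SE 0.11, interval -1.20 to -0.67, adjusted p = 0.00142, exact permutation p = 0.0286). Fzd1, the closest relative of Fzd2, lies in 1 exon at chr5:4753842-4758216 on the minus strand (ENSMUSG00000044674). It stood at 17.3, 21.7 and 21.2 CPM in control and 11.01, 10.3, 11.3 and 9.33 CPM in WDR11OE, without overlap. It fell to 52.2% of control (log2 fold change -0.94, SE 0.13, adjusted p = 0.00199, exact permutation p = 0.0286).

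The 3 related receptors thus stood at 52.1% to 52.7% of control, near the 51.3% of Fzd4 from another subfamily. The proportions of the 3 to one another were compared directly. The log2 ratio of Fzd1 to Fzd2 differed by -0.00 between groups, with a range of -0.35 to 0.28 over the 12 pairs of a WDR11OE and a control tumor (exact permutation p = 1, two-sided). The difference was 0.01 for Fzd1 to Fzd7 (range -0.34 to 0.48, exact permutation p = 0.886) and 0.01 for Fzd2 to Fzd7 (range -0.16 to 0.28, exact permutation p = 0.914). Shifts in proportion of the size of those ranges could not be told from the spread between these tumors.

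In the pair of Fzd5 and Fzd8, only Fzd8 passed the test. Fzd8 is expressed in the developing forebrain and lies in 1 exon at chr18:9212854-9216199 on the plus strand (ENSMUSG00000036904). Its level was 5.92, 6.80 and 6.83 CPM in control and 2.56, 3.29, 2.10 and 2.57 CPM in WDR11OE. The groups were well apart, and the mean was 40.4% of control (log2 fold change -1.31, SE 0.20, interval -1.76 to -0.85, adjusted p = 0.00285, exact permutation p = 0.0286). Fzd5, needed for placental vessel growth and eye development in the mouse, lies in 2 exons at chr1:64777134-64784324 on the minus strand (ENSMUSG00000045005). It stood at 6.20, 5.79 and 6.07 CPM in control and at 5.54, 5.43, 6.01 and 3.83 CPM in WDR11OE. Replicate 4 was the lowest, and the groups overlapped. The log2 fold change of -0.21 had an interval from -0.65 to 0.23 (adjusted p = 0.436, exact permutation p = 0.171). The log2 ratio of Fzd8 to Fzd5 was lower by 1.08 in WDR11OE (difference -1.08, range -1.73 to -0.50), with an exact permutation p of 0.0286 that became 0.0858 after Benjamini-Hochberg adjustment over the 6 ratios compared.

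Fzd4 is the receptor for Norrin (Ndp) and is needed for retinal and cerebellar vessels. It lies in 2 exons at chr7:96552876-96558620 on the plus strand (ENSMUSG00000049791). Its level was 7.73, 9.28 and 9.26 CPM in control and 4.43, 4.59, 4.62 and 4.31 CPM in WDR11OE. The WDR11OE tumors were close to one another and all below control (log2 fold change -0.96, SE 0.14, interval -1.29 to -0.64, adjusted p = 0.00243, exact permutation p = 0.0286). Of the endothelial markers, Cdh5 (log2 fold change -1.02), Flt1 (-0.74) and Esam (-0.55) also fell, and the other 5, namely Pecam1 (0.12), Tek (0.02), Emcn (0.19), Kdr (-0.40) and Cldn5 (-0.23), did not pass the test. Whether the Fzd4 values and the endothelial markers share a source was not tested.

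Fzd9, whose human counterpart sits in the region deleted in Williams syndrome, lies in 1 exon at chr5:135724808-135727100 on the minus strand (ENSMUSG00000049551). It stood at 12.3, 10.6 and 13.4 CPM in control and 9.76, 10.9, 9.27 and 7.85 CPM in WDR11OE. Control replicate 2 lay inside the WDR11OE range. The log2 fold change of -0.36 had an interval from -0.72 to 0.01 (adjusted p = 0.121, exact permutation p = 0.0857). The log2 ratio of Fzd4 to Fzd9 differed by -0.60 (range -1.05 to -0.19, exact permutation p = 0.0286, 0.0858 after adjustment over the 6 ratios). Fzd10 (chr5:129106719-129109968, plus strand, ENSMUSG00000081683) had 2, 3 and 2 counts in control and 7, 9, 4 and 4 in WDR11OE. The control counts were at or under the floor of 3, so no fold is given, and 2430 exonic bases of the gene overlap a pseudogene annotated on the same strand.

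Fzd3 and Fzd6 act in axon guidance and in the orientation of hairs and sensory cells, and neither passed the test. Fzd3 lies at chr14:65819863-65881300 on the minus strand (ENSMUSG00000007989). It stood at 43.4, 38.7 and 34.7 CPM in control and 31.0, 34.7, 31.1 and 36.9 CPM in WDR11OE. The groups overlapped (log2 fold change -0.22, interval -0.46 to 0.02, adjusted p = 0.150, exact permutation p = 0.143). Fzd6 lies at chr15:38837879-38869732 on the plus strand (ENSMUSG00000022297). It stood at 11.2, 10.04 and 14.5 CPM in control and 9.90, 11.1, 10.7 and 12.5 CPM in WDR11OE. Control replicate 3 was the highest and the other tumors were mixed (log2 fold change -0.11, interval -0.49 to 0.27, adjusted p = 0.661, exact permutation p = 0.543). The log2 ratio of Fzd3 to Fzd6 differed by -0.12 (range -0.42 to 0.39, exact permutation p = 0.400).

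**Figure D2:**
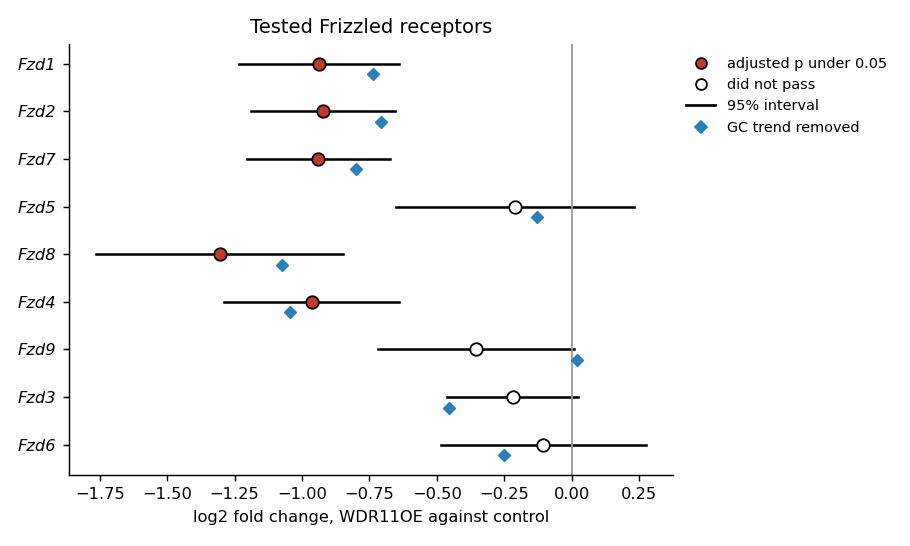
Log2 fold change of WDR11OE against control for the 9 tested receptors, ordered by subfamily, with 95% intervals as lines, filled circles for an adjusted p under 0.05, and diamonds for the value after the trend with exon GC content was removed. The 5 filled members lie between -0.92 and -1.31, and the 4 open ones between -0.11 and -0.36.

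Summed over the 10 receptors, the family level per kilobase was 96.0, 91.1 and 99.6 in the control tumors and 56.7, 60.3, 57.3 and 49.2 in the WDR11OE tumors. No tumors overlapped, and the WDR11OE mean was 58.5% of control. Fzd1, Fzd2 and Fzd7 together held 76.3% ± 0.500 (SD, n = 3) of the control sum and 68.5% ± 3.07 (SD, n = 4) of the WDR11OE sum. Fzd3 and Fzd6 held 12.7% ± 0.869 (SD, n = 3) and 19.2% ± 3.20 (SD, n = 4). Among the WDR11OE tumors, replicate 4 had the smallest share of the trio (64.0%) and the other 3 had 68.9% to 70.7%. The shares add to the whole, so that a smaller share of the trio forces a larger one elsewhere.

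**Figure D3:**
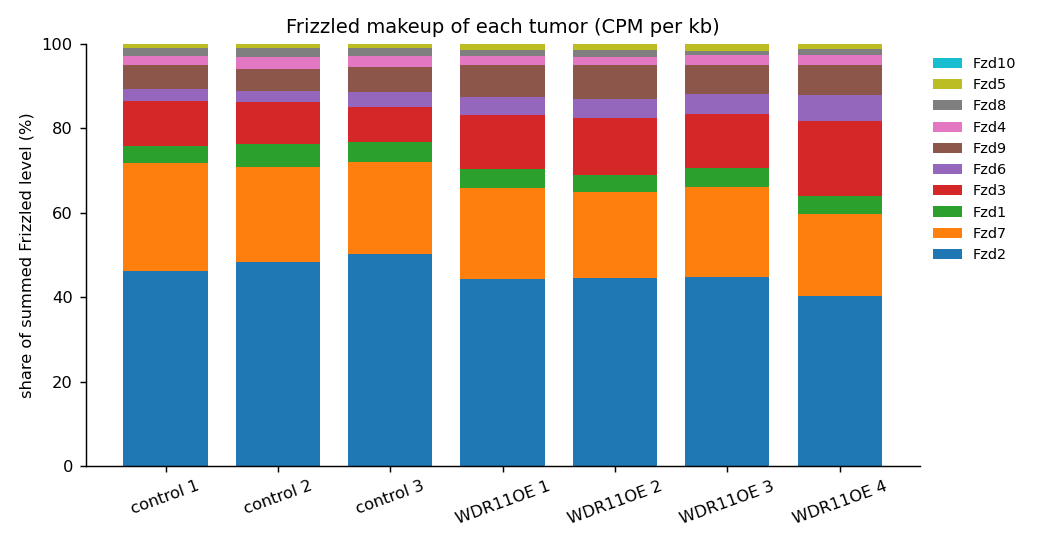
Share of the summed Frizzled level (CPM per kilobase, in percent) held by each receptor in each tumor, as stacked bars from 0 to 100%. Fzd1, Fzd2 and Fzd7 hold 75.9% to 76.9% of the sum in the control tumors and 64.0% to 70.7% in the WDR11OE tumors.

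Fold changes over all genes followed exon GC content (Spearman's rho across 17125 genes -0.344, genes not being independent replicates), so each receptor was set beside genes of its own GC content. Only genes with a mean log2 CPM above 0 entered these sets. Genes within 1 point of Fzd2 (56.6% GC) had a median log2 fold change of -0.19, and those around Fzd1, Fzd7 and Fzd8 medians of -0.16, -0.15 and -0.20. The share of such genes called lower was 27.1% around Fzd2, 25.0% around Fzd1, 25.5% around Fzd7 and 29.2% around Fzd8. It was 14.9% around Fzd4, and 15.8% over all genes tested, which include genes below that level, so the 2 kinds of share are not strictly alike. Around Fzd4 (47.8% GC) the median was 0.10, opposite in sign to the receptor's own change. Around Fzd9 (62.2% GC) it was -0.34, close to the receptor's own -0.36, and around Fzd3 (43.7% GC) it was 0.27, opposite to the receptor's -0.22. After the GC trend was removed, the log2 fold changes were -0.74 for Fzd1, -0.71 for Fzd2, -0.80 for Fzd7, -1.07 for Fzd8 and -1.04 for Fzd4, and all 5 stayed past the threshold. Fzd3 then passed as well (-0.46, adjusted p = 0.0149), giving 6 of 9 members lower where 14.3% of all genes were lower and 11.2% higher, and Fzd9 came to 0.02 (adjusted p = 0.947).

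**Figure D4:**
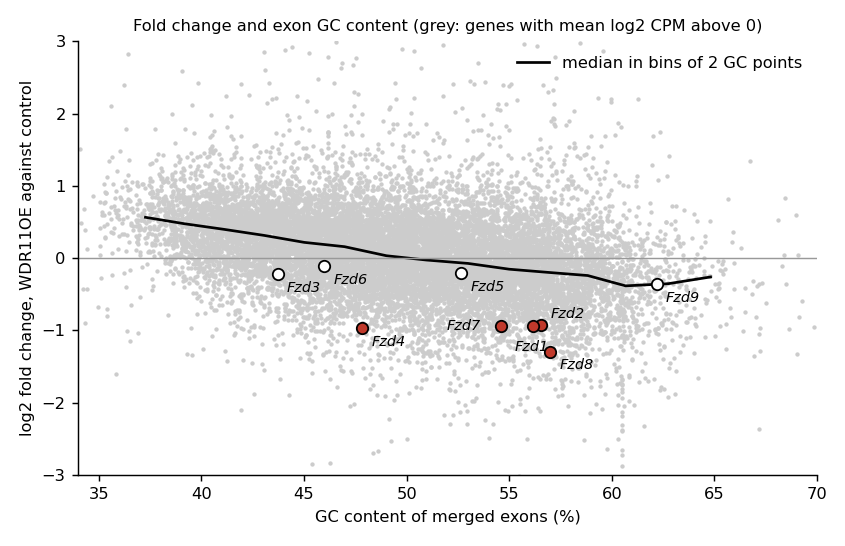
Log2 fold change of WDR11OE against control by GC content of the merged exons (percent), for genes with a mean log2 CPM above 0 (grey), with the median in bins of 2 points (line) and the 9 tested receptors (filled for an adjusted p under 0.05). The median declines with GC content, and Fzd4 and Fzd8 lie well below it while Fzd9 lies on it.

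The promoter table from RefSeq (GRCm38.p6) held 6 of the 10 members, and the 250 bases before the start are shown for Fzd1, Fzd7 and Fzd4, which all fell. Capitals mark the TCF core (CTTTGA or CTTTGT, either strand) and the CCAAT box (CCAAT, either strand). The 3 windows lie at chr5:4758217-4758466 (minus strand), chr1:59481897-59482146 (plus) and chr7:89404116-89404365 (plus).
Fzd1: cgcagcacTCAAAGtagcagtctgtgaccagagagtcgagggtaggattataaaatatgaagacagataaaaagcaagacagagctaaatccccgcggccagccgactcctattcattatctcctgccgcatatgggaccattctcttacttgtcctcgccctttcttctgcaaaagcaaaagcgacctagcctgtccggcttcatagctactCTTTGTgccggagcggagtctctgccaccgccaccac
Fzd7: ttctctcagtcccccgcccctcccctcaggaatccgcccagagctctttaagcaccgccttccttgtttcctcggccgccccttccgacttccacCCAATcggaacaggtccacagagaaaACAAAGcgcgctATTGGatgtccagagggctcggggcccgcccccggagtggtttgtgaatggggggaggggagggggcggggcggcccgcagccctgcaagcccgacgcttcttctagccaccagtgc
Fzd4: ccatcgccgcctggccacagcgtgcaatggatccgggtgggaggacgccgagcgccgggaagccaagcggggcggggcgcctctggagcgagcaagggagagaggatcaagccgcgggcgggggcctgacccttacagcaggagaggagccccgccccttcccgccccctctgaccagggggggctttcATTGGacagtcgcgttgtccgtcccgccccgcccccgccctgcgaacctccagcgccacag
Fzd1 held 2 TCF cores and no CCAAT box, Fzd7 held 1 TCF core and 2 CCAAT boxes, and Fzd4 held no TCF core and 1 CCAAT box. Over 32851 promoter windows of the same length, 27.6% held a TCF core and 33.8% a CCAAT box. The E-box CACGTG, which MYC and other factors bind, was in 6.02% of all windows, in none of these 3, and in the window of Fzd9, whose level did not pass the test. The GC box (GGGCGG, either strand) occurred 7 times in Fzd4, 6 times in Fzd7 and not in Fzd1, against 9 times in Fzd5, which did not pass the test, and was in 32.7% of all windows. The window of Fzd5 also held 1 CCAAT box. These matches describe the letters of the windows only.

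The partners of the receptors were read from lists of the surrounding pathway, whose counts stand beside 15.8% of all genes lower and 18.1% higher, or 14.3% and 11.2% after the GC trend was removed. Of 20 WNT ligands and Norrin, 9 were tested, 1 fell and 0 rose (median log2 fold change -0.09, against 0.08 for all genes), but the median was 0.30 after the GC trend was removed, against 0.05 for all genes, so that its direction depended on that setting. Wnt5a, a ligand of the non-canonical branch, fell, with 12.3 to 17.8 CPM in control and 7.27 to 12.2 CPM in WDR11OE (-0.77, adjusted p = 0.0308). Ndp had a log2 fold change of -0.40, Wnt6 0.61 and Wnt7a 0.71, none past the threshold. Of 9 genes for the making and release of ligands, 5 rose and 1 fell (median 0.32). Vps35, a retromer subunit that recycles the WNT carrier Wls, stood at 104 to 109 CPM in control and 175 to 194 CPM in WDR11OE (0.77, adjusted p = 0.000917), whereas the retromer partner Snx3 fell (-0.82, adjusted p = 0.00566). Notum, which strips the lipid from WNTs, had 1.69 (adjusted p = 0.0785) and Porcn, which adds it, -0.12. After the GC trend was removed, 2 of these 9 rose (Vps35 at 0.40 and Vps29 at 0.28) and 1 fell, beside 11.2% and 14.3% of all genes.

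Of 10 co-receptors, 9 were tested, and 5 fell and 1 rose (median log2 fold change -0.51). Gpr124, which with Reck relays WNT7 signals in brain vessels, stood at 165 to 185 CPM in control and 63.3 to 93.9 CPM in WDR11OE (-1.11, adjusted p = 0.00129). Ror2, a receptor kinase for Wnt5a, fell by 1.04 on the log2 scale (adjusted p = 0.0179), and Tspan12, which aids Norrin and Fzd4, rose (0.50, adjusted p = 0.0260). Ryk had -0.20 (adjusted p = 0.171). Lrp5 (-0.84, adjusted p = 0.00443) and Lrp6 (-0.44, adjusted p = 0.00628), the canonical partners of Frizzleds, both fell. After the GC trend was removed, 4 of the co-receptors fell and 0 rose, since Ror2 (-0.77, adjusted p = 0.0582) and Tspan12 (0.20, adjusted p = 0.328) no longer passed.

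Of 11 genes that set the turnover of Frizzleds at the membrane, 10 were tested, and 4 fell and 0 rose (median log2 fold change -0.36). Znrf3, a ubiquitin ligase that removes Frizzleds, fell by 0.41 (adjusted p = 0.0171), and Lgr4, an R-spondin receptor that opposes it, fell by 0.29 (adjusted p = 0.0143). The R-spondin Rspo1 fell by 2.12 (adjusted p = 0.0158) from a low level of 0.306 to 0.766 CPM. Shisa2, which holds immature Frizzleds inside the cell, stood at 6.42 to 15.6 CPM in control and 4.09 to 5.38 CPM in WDR11OE (-1.34, adjusted p = 0.0120). Shisa3 had 2.77 and Lgr5 1.35, neither past the threshold. In both, WDR11OE replicates 3 and 4 were high and replicates 1 and 2 were not: Shisa3 stood at 4.47 and 14.1 CPM against 0.0474 and 0.0000 CPM. These are the tumors in which most neuron and microglia markers and every astrocyte marker were higher, and the part of those markers was not tested.

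Proteins that carry a Frizzled-type CRD moved in both directions. Of 13 listed, 9 were tested, 4 fell and 1 rose (median log2 fold change -0.51). The secreted WNT binders Sfrp2 (-2.04, adjusted p = 0.00173), Sfrp5 (-2.03, adjusted p = 0.00541) and Sfrp1 (-1.22, adjusted p = 0.00903) fell, and Ror2 was the fourth, leaving 3 lower after the GC trend was removed. Sfrp4 rose, with 1.26 to 2.08 CPM in control and 9.63 to 16.2 CPM in WDR11OE (2.92, adjusted p = 0.00105). Smo, the Hedgehog transducer and a distant relative of the Frizzleds, had -0.33 (adjusted p = 0.134), and Col18a1, a basement membrane collagen with a CRD isoform, -0.22 (adjusted p = 0.453).

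Of 15 planar polarity genes, all tested, 4 fell and 1 rose (median log2 fold change -0.24), beside 15.8% and 18.1% of all genes. Vangl2, a membrane partner of Frizzleds in polarity, stood at 55.2 to 63.1 CPM in control and 26.7 to 34.1 CPM in WDR11OE (-0.97, adjusted p = 0.00115), and the scaffold Scrib fell as well (-0.88, adjusted p = 0.00214). Prickle3 rose (1.06, adjusted p = 0.0243) at under 1.1 CPM in every tumor, and Celsr3 did not pass the test (adjusted p = 0.622), with 7.73 and 27.9 CPM in WDR11OE replicates 3 and 4 against 0.450 and 0.848 CPM in replicates 1 and 2. Of 13 feedback targets of β-catenin, 11 were tested, and 2 fell and 2 rose (median -0.14), close to the shares of all genes. Axin2, the most used readout of the canonical branch, rose without overlap, averaging 9.50 ± 2.12 CPM over the 3 control and 15.6 ± 1.67 CPM over the 4 WDR11OE tumors (SDs; 0.72, edgeR adjusted p = 0.0185), as did Bambi (0.58, adjusted p = 0.0210), which no longer passed after the GC trend was removed (0.34, adjusted p = 0.125). Nkd1, an inhibitor of Dishevelled, fell (-0.89, adjusted p = 0.0116), Znrf3 was the other that fell, and Tcf7 had -0.54 (adjusted p = 0.0904). Lower Frizzled transcripts and higher Axin2 thus stood side by side in the same 4 tumors.

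**Figure D5:**
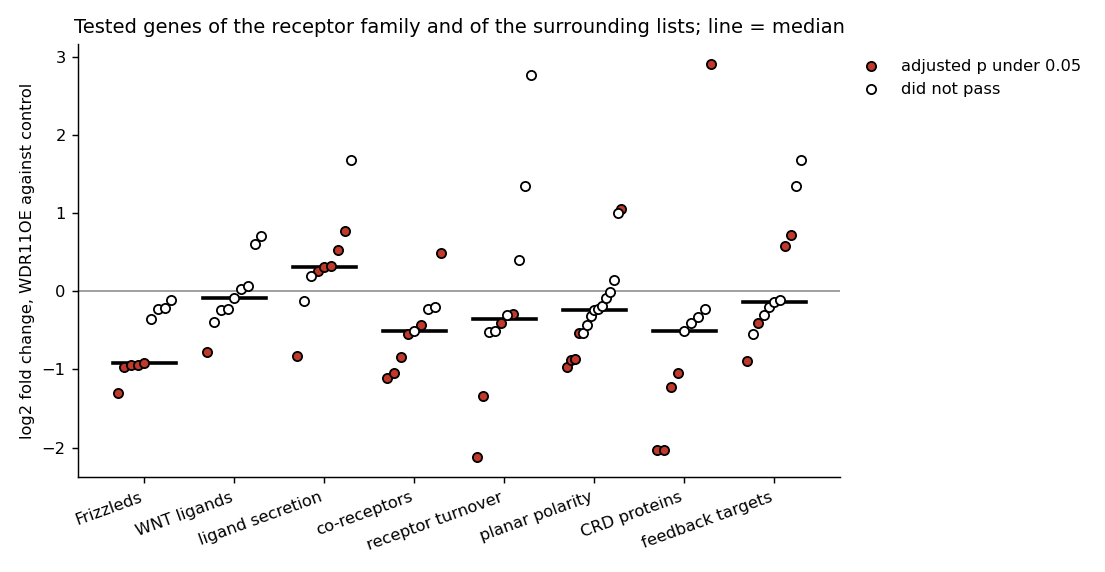
Log2 fold change of WDR11OE against control for each tested gene of the Frizzled family and of 7 lists around it, with 1 point per gene, filled for an adjusted p under 0.05, and a line at the list's median. The Frizzled median lies at -0.92, and the medians of the other lists lie between -0.51 and 0.32.

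Genes whose log2 CPM ran most like the 3 most abundant receptors across the 7 tumors were named by Pearson's r as a description, since the 7 tumors span both groups. For Fzd2 they were Zfp516 (r = 0.9987) and Frmpd1 (r = 0.9971), and for Fzd7 Dab2ip (r = 0.9968). Zfp516 had a log2 fold change of -0.57, Frmpd1 -0.76 and Dab2ip -1.02. For Fzd3 they were Plxdc1 (r = 0.9665) and Csrnp1 (r = 0.9634), neither of which passed the test of condition.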

How the data were processed

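RNA from 7 tumors was sequenced by the authors on libraries that the labels assign to the TruSeq RNA Library Prep Kit v2 and the study's methods to a stranded total RNA kit. Raw counts per gene were deposited by the authors after mapping to NCBIM37 with their own pipeline, and the submitters' processing notes name STAR, BWA, CASAVA 1.7 and HTSeq. The strand setting is not given in the sources used here.

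The deposited counts were tested with edgeR 4.0.16 (quasi-likelihood F-test, TMM scaling, default filter, two-sided, Benjamini-Hochberg adjustment over 17389 genes, threshold 0.05). The biological coefficient of variation was 34.6%. Single values were also compared by exact permutation over the 35 divisions of the tumors, for which the smallest p is 0.0286. Alternatives used limma 3.58.1 (limma-voom, the study's own test), DESeq2 1.42.0, other scalings and filters, removal of GC and exon length trends (lowess, span 0.3), each tumor left out in turn, and WDR11OE replicates 1 and 2, whose titles share a number, summed. The fitting script was run on simulated counts with a fixed dispersion shared by all genes and no GC trend. That setting is simpler than these data, so the run checks the code and not the calls made here. Exon lengths and GC content came from GENCODE M1 on NCBIM37 (33606 genes, 97.1%, matched), and coding sequences were aligned with Biopython 1.88. Intervals of log2 fold changes come from the edgeR fit and include the spread between tumors.

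The receptor family, pathway lists and markers were chosen with earlier results of these data known. All 10 members were named. Of each pathway list, the 2 lowest and 2 highest tested genes by log2 fold change were named, plus those past the threshold with at least a 2-fold change, and, for each of the 3 most abundant receptors, the 2 genes of highest Pearson r. One gene of that last kind is not reported here. Lrp5, Lrp6, Znrf3, Lgr4, Smo, Axin2 and Bambi were named for their roles after their values were seen. Replicate numbers follow accession order and pair nothing.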

Additional observations from a re-analysis of the deposited data

Results flagged for a closer look

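In the WDR11OE group of 4 tumors, the gap between the lowest tumor and its neighbor was compared with the whole range of the group and set against Dixon's 95% critical value. Fzd7 gave 0.970, since replicate 4 stood at 45.8 CPM and the others at 58.6 to 59.0 CPM. The summed level per kilobase gave 0.854 for Fzd1, Fzd2 and Fzd7 and 0.836 for Fzd2 and Fzd7, again through replicate 4, and these sums contain Fzd7 itself. Such gaps were computed 16 times, and chance flags about 1 in 20 groups. Without replicate 4 the same 5 receptors were lower.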

How the results depend on the processing

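The count of lower receptors was 5 under every alternative except removal of the GC trend and of the GC and length trends together. These gave 6 each, and 0 rose under any alternative. The share of all genes that were lower was 14.3% and 12.2% in those settings. Over the alternatives it ran from 10.2% (no filter) to 19.3% (DESeq2). Fzd1, Fzd2, Fzd4, Fzd7 and Fzd8 kept their direction and an adjusted p of at most 0.0158 in all 19 alternatives, of which that without WDR11OE replicates 3 and 4 was added after seeing the data, with log2 fold changes from -1.48 to -0.66. Fzd3 passed after removal of the GC trend (-0.46) or of both trends (-0.39). Fzd5 changed sign to 0.082 with both trends removed, Fzd9 to 0.018 with the GC trend removed, and Fzd6 ranged from -0.217 to 0.056 with 1 tumor left out, the positive value being that without control replicate 3. None of these 3 passed in any alternative. The cause was not tested.

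Over all genes, 3150 rose in the main test, but 1942 with the GC trend removed, 1850 with both trends removed, 2093 without a filter, 1629 with WDR11OE replicates 1 and 2 summed, and 1560, 1657 and 2045 without WDR11OE replicate 1, WDR11OE replicate 2 and control replicate 2. The median log2 fold change of all genes was 0.08 with TMM, 0.12 with upper quartile and 0.04 with RLE scaling. With 3 and 4 tumors, changes smaller than the intervals given for Fzd3, Fzd5, Fzd6 and Fzd9 were not detectable. No paired analysis was possible because the labels give no numbers that pair tumors across the groups.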
